A study of Mus musculus with 26 samples.

Results

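The nuclear genes of the mitochondrial respiratory chain were followed by poly(A) RNA-seq in mouse R1 embryonic stem cells (ESCs). Members were all genes of the count table whose names start with Nduf (complex I), Uqcr (complex III) or Atp5 (complex V, the ATP synthase), or with Cox and a digit from 4 to 8 (complex IV), leaving out 14 names that contain -ps. This gave 93 of the 55291 genes in the table, all with at least 10 counts over the 26 libraries, and 91 of them passed the filter on low counts and were tested. The members comprised 41 complex I genes (40 tested), 8 Ndufaf assembly factors of complex I (8 tested), 8 complex III genes (8 tested), 19 complex IV genes (18 tested) and 17 complex V genes (17 tested). Cox8b, with 12 counts in all, and Ndufa11b, with 15, were not tested. In GENCODE M21, 87 members are protein coding and 4 (Ndufs6b, Cox6c2, Ndufb4c and Ndufa11b) are processed pseudogenes, and the remaining 2 (Atp5pb and Atp5md) were not found there by name.

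The respiratory chain lies in the inner mitochondrial membrane. Complexes I and II pass electrons from NADH and succinate to ubiquinone, complex III passes them on to cytochrome c, and complex IV hands them to oxygen. Complexes I, III and IV pump protons, and complex V uses the returning protons to make ATP. Most subunits are encoded in the nucleus and imported, while mitochondrial DNA encodes a small set of core subunits, so complexes I, III, IV and V need the products of both genomes. Pluripotent ESCs rely heavily on glycolysis, and the amount of respiratory chain changes in early development.

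The 13 groups held 2 libraries each, all from R1 cells in medium with leukaemia inhibitory factor (LIF) on gelatin. Wild-type cells were untreated (ESC), treated with the solvent DMSO, with 0.53 µM retinoic acid (RA) for 48 h, or with 4 nM pladienolide B (PlaB), which blocks the SF3B subunit of the spliceosome, for 4 days, or carried a transgene switched on for 24 h with doxycycline at 4 µg/mL, which was Zscan4 (Zscan4 OE), Dux (Dux OE) or the Dux mutant R70A (Dux R70A OE). Dux is a homeobox factor of the 2-cell embryo, and RA, PlaB and Zscan4 were used to induce cells that resemble that stage. Cells with a knockdown of Dux (Dux KD) were studied with RA, PlaB and Zscan4 OE, and cells that lack the Tdpoz super-enhancer (SE KO) with RA, PlaB and Dux OE, without an untreated library of either line. The labels do not name the hairpin or say whether either line was 1 clone. No group had doxycycline without a transgene, so the drug and the transgene cannot be told apart in comparisons with ESC or DMSO. The genotype label of SE KO RA replicate 1 reads wild type, and both Dux KD Zscan4 OE libraries are labelled as not treated, so their titles alone give these groups. The paper calls the replicates biological where it compares SE KO with wild-type cells under Dux OE and under RA. The labels do not say whether replicates of any group came from separate cultures, so p-values measure the spread between these libraries.

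Library totals ranged from 14401452 to 39402840 counts (median 18276934), and 3 counts, the floor used here, correspond to 0.0796 to 0.226 CPM (the count relative to the scaled library total). Duxf3, the Dux gene of the table, was counted at 9.25 and 8.21 CPM in the PlaB libraries and at 0.0590 and 0 CPM in those labelled Dux KD PlaB. It stood at 2.16 and 2.75 CPM in RA against 0.919 and 0.354 CPM in Dux KD RA, and at 1.75 and 0.923 CPM in Zscan4 OE against 0.0649 and 0 CPM in Dux KD Zscan4 OE. In Dux OE it stood at 4.01 and 3.24 CPM against 0.187 and 0 CPM in ESC, and no read was counted on it in either Dux R70A OE library. It was at 1.46 and 1.28 CPM in SE KO Dux OE, 0.0931 and 0.423 CPM in SE KO RA and 1.65 and 2.10 CPM in SE KO PlaB. For all of these, whether reads of the transgenes can be counted on this gene is not given in the sources used here. The libraries labelled Dux KD PlaB stood apart from PlaB across the genome. Of the change in PlaB over 12331 genes that passed there at 2-fold or more, they showed a median share of 0.0910. Groups without PlaB showed shares from 0.0648 to 0.221, and SE KO PlaB showed 0.238. The 9 markers of the 2-cell stage summed to 7331 and 7584 CPM in PlaB, to 6.66 and 6.82 CPM in Dux KD PlaB and to 7.09 and 5.37 CPM in DMSO. Whether PlaB acted in the libraries labelled Dux KD PlaB therefore cannot be told apart from an effect of the knockdown, in every comparison that uses them. In SE KO PlaB the same markers summed to 598 and 540 CPM. An effect of the knockout cannot be told apart from a weaker action of PlaB in comparisons that use SE KO PlaB. The libraries labelled Dux KD Zscan4 OE also go against their label, since Zscan4c stood at 0.779 and 1.13 CPM and Zscan4d at 0.974 and 1.51 CPM there. In Zscan4 OE Zscan4d stood at 116 and 122 CPM, and in ESC Zscan4c stood at 5.73 and 6.13 CPM. The summed level of 10 ESC markers was 9360 and 9505 CPM in DMSO, 6342 and 5833 CPM in PlaB and 8147 and 8122 CPM in Dux KD PlaB, and none of the 10 was at 0 in any group. The sum in PlaB hides opposite changes. Against DMSO, Dppa5a, Zfp42 and Tfcp2l1 were higher there and the other 7 lower, 6 of them at 2-fold or more. These 6 include Pou5f1, Sox2, Nanog, Esrrb and Klf4. The 8 feeder or fibroblast markers summed to between 16.8 and 158 CPM over all libraries.

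Between genes, levels are compared per kilobase of exon. Over all libraries the most abundant members were Atp5b and Atp5a1, the catalytic β and the α subunit of the ATP synthase, at 537 and 420 CPM per kilobase. Next came Cox4i1 at 372, Cox8a at 220 and Cox6b1 at 216 CPM per kilobase, which encode nuclear subunits of cytochrome c oxidase. The summed level of all members was 11056 and 10848 CPM in the DMSO libraries and 13310 and 13522 CPM in ESC. It reached 19868 and 17834 CPM in PlaB, above every other library. Dux OE followed at 13937 and 13766 CPM, then ESC, SE KO Dux OE at 12291 and 13490 CPM, Dux KD Zscan4 OE at 13181 and 12411 CPM and Dux KD PlaB at 12371 and 12317 CPM. SE KO Dux OE overlapped with ESC, Dux KD Zscan4 OE and Dux KD PlaB. SE KO PlaB stood at 8441 and 11090 CPM, so its replicates differed more than those of any other group. Dux KD RA was among the lowest at 9830 and 9647 CPM, and Zscan4 OE, at 10130 and 9702 CPM, overlapped with it.

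**Figure D1:**
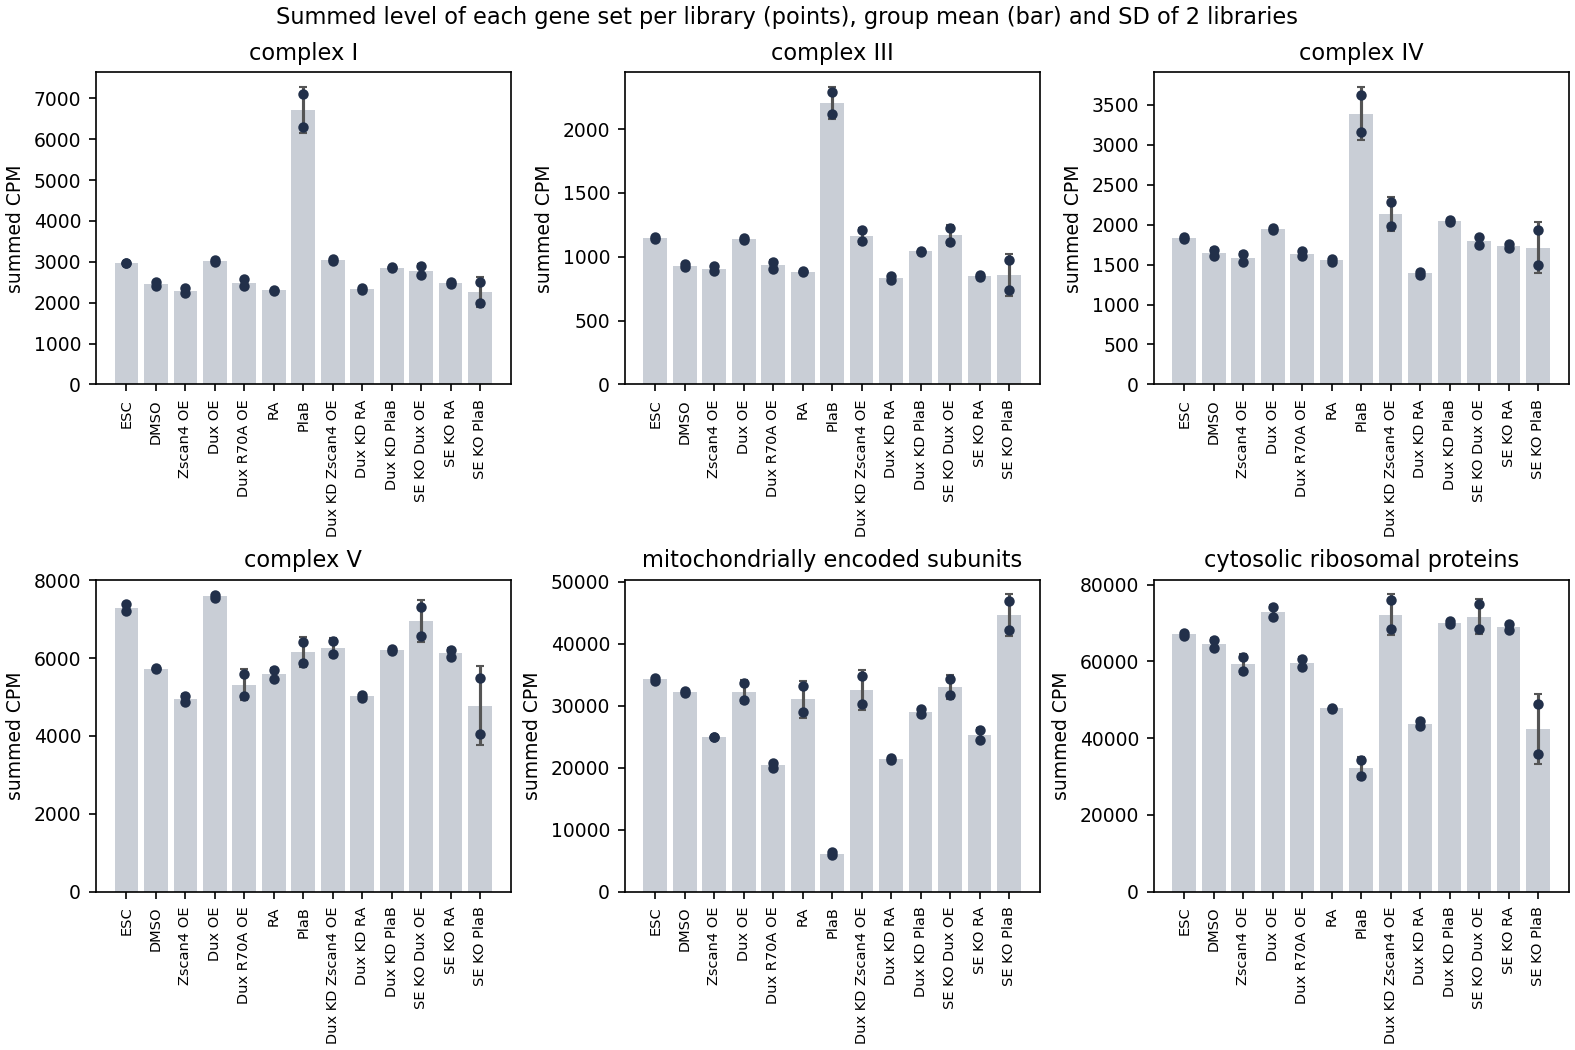
Summed CPM (vertical axes, from 0) of the nuclear members of complexes I, III, IV and V, of the 13 mitochondrially encoded subunits and of cytosolic ribosomal protein genes in the 13 groups. Points are single libraries, bars are group means and lines are the SD of the 2 libraries. The PlaB libraries, at 7109 and 6309 CPM for complex I, lie above all others for complexes I, III and IV, are within the range of the other groups for complex V, and are the lowest for the mitochondrially encoded subunits at 5916 and 6353 CPM.

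The comparison of PlaB with DMSO asked how the chain responds to splicing inhibition at a dose that induces the totipotent-like state. Of the 91 members, 72 were higher in PlaB at an adjusted p under 0.05 and 6 were lower. Over all 20953 genes tested, 41.7% were higher and 35.4% lower. At 2-fold or more, 51 members were higher and 2 lower, against 32.3% and 26.6% of all genes. The median log2 fold change of the members was 1.30 and that of all genes 0.22. The complexes responded unequally, with medians of 1.66 for complex I, 1.39 for complex III, 1.18 for complex IV, 0.83 for the Ndufaf assembly factors and 0.36 for complex V. Fewer expressing cells and less RNA per cell cannot be told apart in such bulk samples. In these libraries 7 of 10 ESC markers were lower and 3 higher, 9 of 9 markers of the 2-cell stage were higher, and of 6 tested trophectoderm markers 4 were higher and 2 lower, with the sum of all 7 in the table at 110 and 111 CPM in DMSO and 464 and 485 CPM in PlaB. Most of the trophectoderm sum in PlaB was Krt8 and Krt18, while Tfap2c had lower values there than in DMSO. The 8 endoderm markers summed to 45.4 and 43.3 CPM in DMSO and to 29.2 and 31.9 CPM in PlaB. That fall came from Lama1, and of the 8 markers 4 were higher and 2 lower, with Gata6, Sox17 and Dab2 at higher values. The part of all these markers in the members' levels was not tested.

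**Figure D2:**
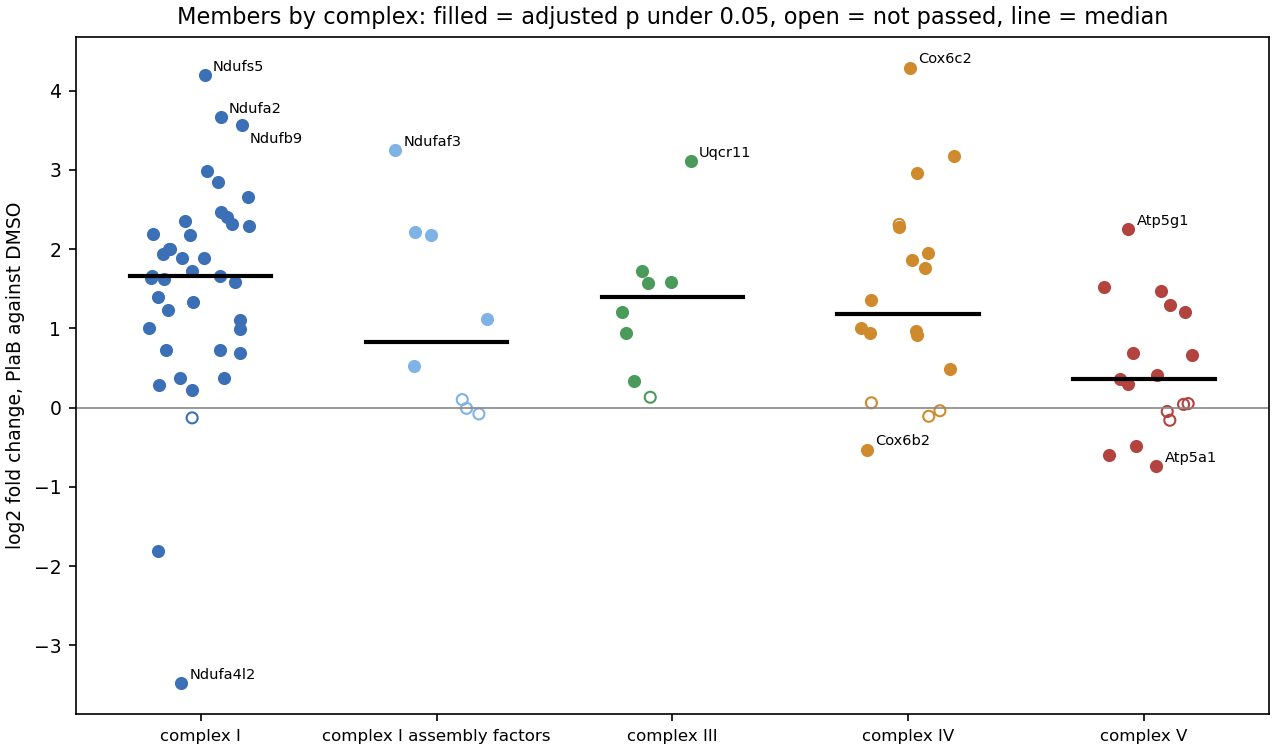
Log2 fold change in PlaB against DMSO (vertical axis) of the 91 tested members, grouped by complex. Filled points passed an adjusted p of 0.05, open points did not, and each line is the median of its group. Complex I members lie mostly above the line of no change, with Ndufs5 highest at 4.20 and Ndufa4l2 lowest at -3.48, while complex V members spread around a median of 0.36.

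Grouped by name, complex I gave the broadest response, with 37 of 40 tested members higher and 2 lower. The 2 lower ones were Ndufa4l2 and the processed pseudogene Ndufb4c. The higher ones include the processed pseudogene Ndufs6b and Ndufa4, whose protein is now counted with complex IV. Ndufb9, an accessory subunit of the membrane arm, was counted at 22.7 and 22.2 CPM in DMSO and at 278 and 258 CPM in PlaB. Its log2 fold change was 3.57 ± 0.14 (SE, adjusted p = 1.5e-18), an 11.9-fold rise. Ndufa2, an accessory subunit of the matrix arm, stood at 17.9 and 15.7 CPM in DMSO and at 235 and 191 CPM in PlaB. It rose by 3.66 ± 0.13 on the log2 scale (adjusted p = 1.5e-19). Ndufs5 went from 4.20 and 3.29 CPM to 74.9 and 62.8 CPM, a log2 fold change of 4.20 ± 0.21 (adjusted p = 3.8e-16). The groups of these genes were far from overlapping. The name Ndufs5-ps, which the rule leaves out, also went from 27.7 and 23.4 CPM to 155 and 135 CPM, so reads shared between the 2 copies leave the level of Ndufs5 itself uncertain. Ndufab1, the acyl carrier protein that also serves mitochondrial fatty acid synthesis, moved from 38.0 and 38.5 CPM to 312 and 290 CPM (log2 fold change 2.98 ± 0.09, adjusted p = 5.2e-21).

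All 7 tested core subunits of complex I, which carry the flavin and the iron-sulphur clusters, were higher, though to different degrees. Ndufs7 rose by 2.32 ± 0.12 and Ndufs8 by 1.89 ± 0.12 on the log2 scale, and Ndufv2 by 1.89 ± 0.08. Ndufv1, which binds NADH, was at 145 and 137 CPM in DMSO and at 239 and 226 CPM in PlaB, a log2 fold change of 0.72 ± 0.11 (adjusted p = 1.1e-06). Ndufs1, the largest subunit, was at 188 and 185 CPM against 246 and 238 CPM, a log2 fold change of 0.37 ± 0.09 (adjusted p = 3.2e-04). Against untreated ESCs, at 274 and 280 CPM, Ndufs1 was lower in PlaB (-0.20, adjusted p = 0.0390), and Ndufv1 did not pass (0.23, adjusted p = 0.0504). The rise of these 2 core subunits therefore held against DMSO alone, while Ndufs7, Ndufs8 and Ndufv2 passed against both controls. Of the 8 assembly factors, 5 were higher and none passed as lower. Ndufaf3 went from 7.32 and 6.69 CPM to 71.6 and 61.6 CPM, a log2 fold change of 3.25 ± 0.15 (adjusted p = 3.8e-17), and Ndufaf7, another assembly factor, rose by 2.21 ± 0.14 (adjusted p = 4.3e-14).

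In complex III, 7 of 8 genes were higher. Uqcr11 was at 38.5 and 35.0 CPM in DMSO and at 326 and 307 CPM in PlaB (log2 fold change 3.11 ± 0.11, adjusted p = 1.7e-19). The Rieske iron-sulphur protein gene Uqcrfs1 was at 80.6 and 71.6 CPM against 232 and 224 CPM, a rise of 1.58 ± 0.12 (adjusted p = 1.1e-12). The core protein gene Uqcrc1 was at 325 and 327 CPM against 766 and 744 CPM, a rise of 1.21 ± 0.12 (adjusted p = 1.1e-09). Both replicates of PlaB lay above both of DMSO for each. Uqcrh, which encodes the hinge protein, was at 82.1 and 81.6 CPM against 94.0 and 85.0 CPM and did not pass.

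In complex IV, 13 of 18 tested genes were higher and 1 was lower. The 13 include Cox6c2, Cox7b2 and Cox8c, whose counts in DMSO were at or near the floor of 3. They also enter the counts and medians over all members. Cox5a stood at 76.0 and 71.1 CPM in DMSO and at 274 and 260 CPM in PlaB, a log2 fold change of 1.86 ± 0.12 (adjusted p = 5.2e-14). Cox4i1 stood at 488 and 492 CPM against 1019 and 937 CPM, a 2.00-fold rise (adjusted p = 2.4e-07). Cox8a rose by 1.36 ± 0.12 (adjusted p = 1.1e-10). Several of these subunits come as isoforms made by separate genes. Of the subunit 6B pair, the somatic Cox6b1 went from 127 and 113 CPM to 523 and 406 CPM (1.95 ± 0.12, adjusted p = 1.5e-14), whereas Cox6b2, known from testis, went from 26.4 and 23.1 CPM to 17.9 and 16.4 CPM (-0.53 ± 0.14, adjusted p = 0.00128). The fall of Cox6b2 did not pass with scaling by library size alone and turned to a rise of 0.41 against untreated ESCs. Of the subunit 7A genes, the heart and muscle form Cox7a1 (6.13 and 5.76 CPM against 33.2 and 24.6 CPM) rose by 2.28 ± 0.18 on the log2 scale, the broadly expressed Cox7a2 (64.4 and 67.3 CPM against 248 and 198 CPM) by 1.76 ± 0.10, and Cox7a2l, which links supercomplexes, by 0.94 ± 0.08. Cox6a1 was at 120 and 122 CPM against 117 and 107 CPM, Cox7b at 170 and 150 CPM against 168 and 144 CPM, and Cox4i2, the form induced by low oxygen, at 3.01 and 4.39 CPM against 3.63 and 4.08 CPM. None of these passed. Cox6c was at 137 and 119 CPM against 194 and 166 CPM, a log2 fold change of 0.49 ± 0.13 (adjusted p = 0.00127).

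Complex V divided most. Of 17 genes, 10 were higher, 3 were lower and 4 did not pass. Atp5a1 was at 1480 CPM in both DMSO libraries and at 901 and 867 CPM in PlaB, a log2 fold change of -0.74 ± 0.11 (adjusted p = 5.3e-07). Atp5b was at 2032 and 2106 CPM against 1883 and 1811 CPM (-0.16 ± 0.10, adjusted p = 0.122), and passed as lower when only these 2 groups were modelled (adjusted p = 0.00783), without filterByExpr (-0.22, adjusted p = 0.0376) and against ESC (-0.61, adjusted p = 2.7e-06). The γ subunit gene Atp5c1 rose by 0.69 ± 0.11 and Atp5o, which encodes the oligomycin sensitivity-conferring protein of the stalk, by 1.47 ± 0.12. The α and γ subunit genes thus moved in opposite directions. The 3 genes Atp5g1, Atp5g2 and Atp5g3 encode the same mature c subunit of the rotor. Atp5g1 went from 100 and 104 CPM to 537 and 435 CPM, a log2 fold change of 2.25 ± 0.11 (adjusted p = 2.7e-16). Atp5g2 went from 154 and 149 CPM to 110 and 107 CPM (-0.48 ± 0.12, adjusted p = 5.5e-04), and Atp5g3 from 263 and 250 CPM to 184 and 154 CPM (-0.60 ± 0.12, adjusted p = 4.5e-05). The 3 genes for 1 protein thus moved in opposite directions. With scaling by library size alone the fall of Atp5g2 did not pass (-0.22, adjusted p = 0.0743).

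**Figure D3:**
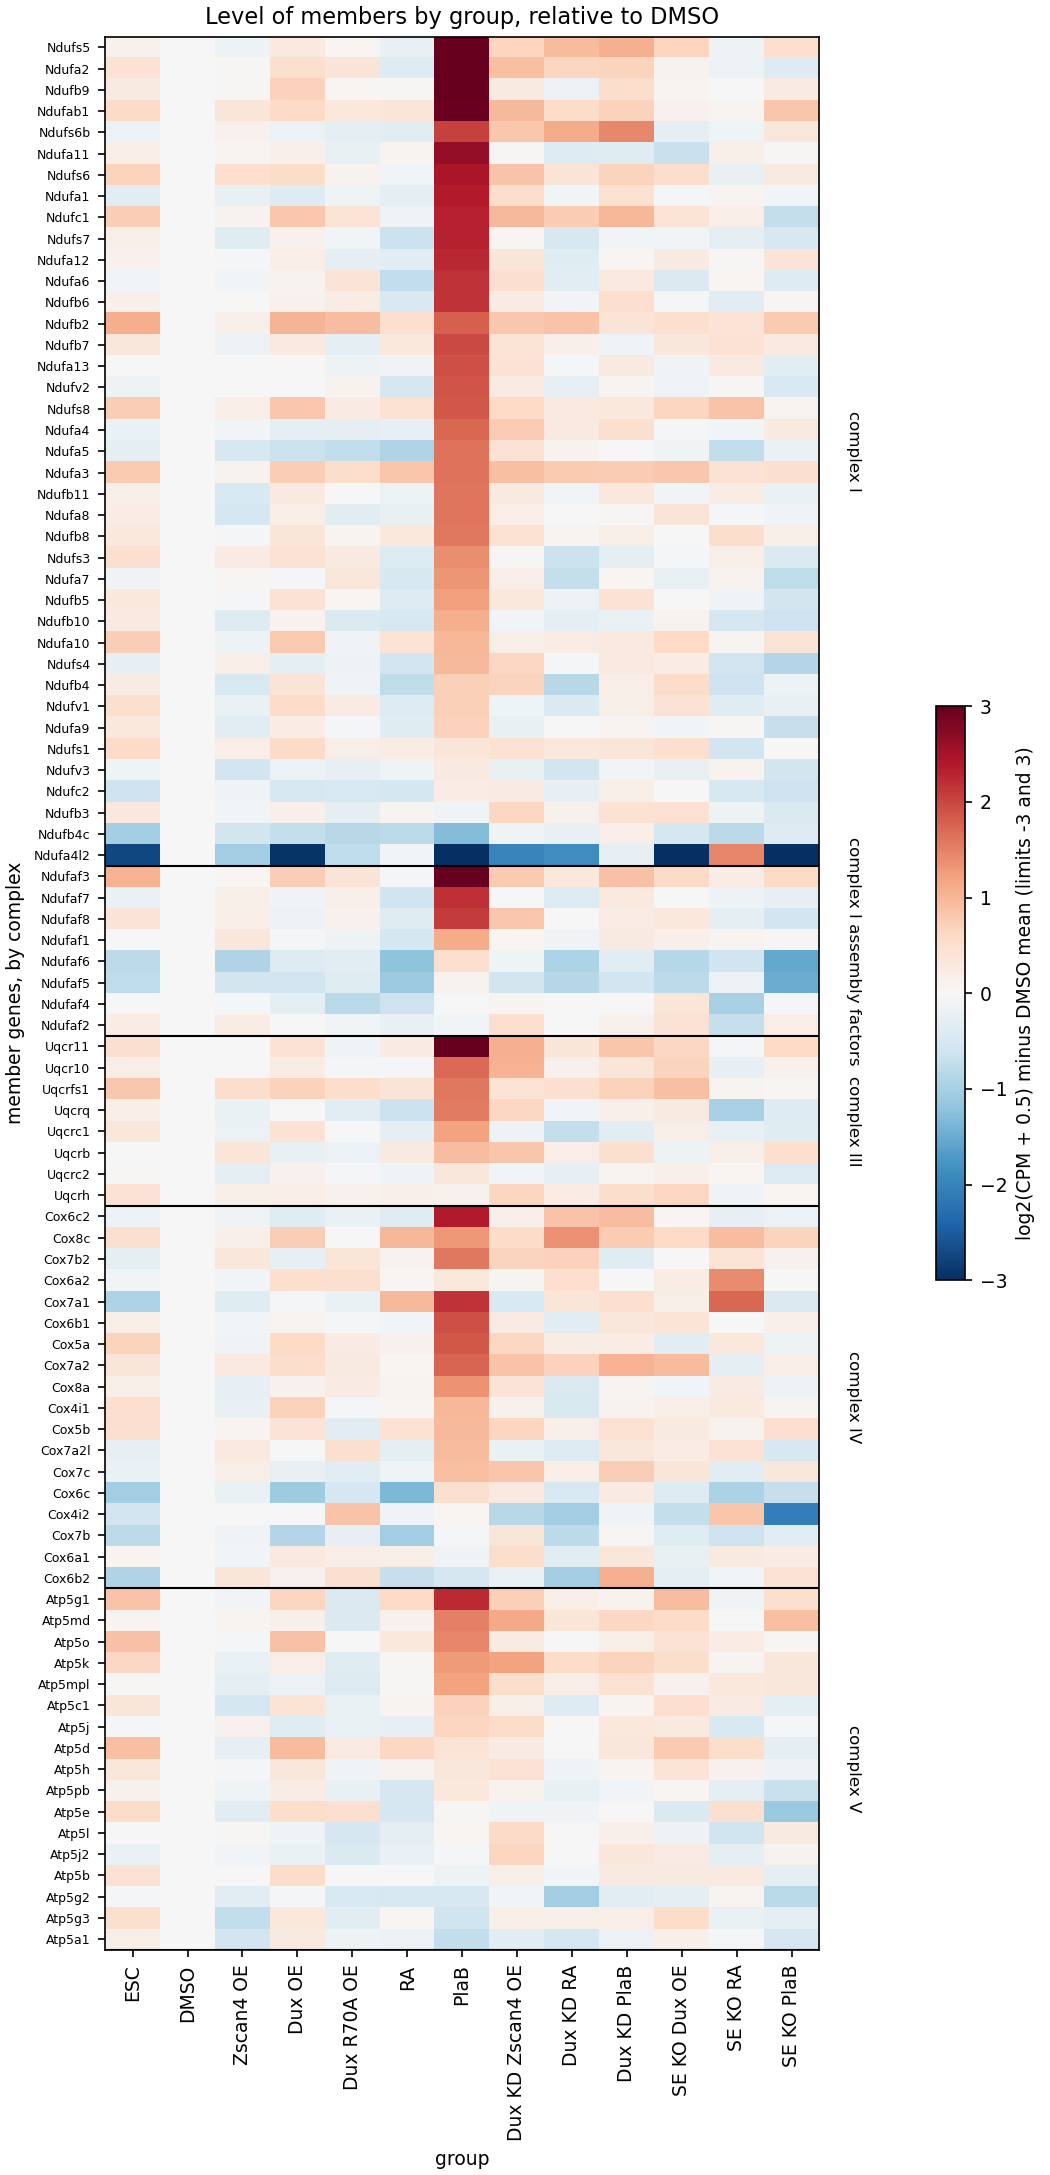
Level of the tested members (rows, 1 left out, by complex and by the size of the PlaB change) in the 13 groups (columns), as the group mean of log2(CPM + 0.5) minus that of DMSO. The colour scale runs from -3 to 3 and values beyond it take the end colours. The PlaB column is red over most of complexes I, III and IV and mixed in complex V, and the Ndufa4l2 row differs from its neighbours in most columns.

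The other genes of the pathway were taken from fixed lists. All 13 mitochondrially encoded subunits had lower values in PlaB, 12 of them past the test, with a median log2 fold change of -3.51. The cytochrome b gene mt-Cytb went from 4249 and 4129 CPM to 217 and 193 CPM, and mt-Co1, the catalytic subunit of complex IV, from 13677 and 13885 CPM to 3267 and 3644 CPM. Nuclear and mitochondrial subunits of complexes I, III and IV thus differed in direction. The ribosomal RNA mt-Rnr2, by contrast, was at 611 and 567 CPM in DMSO and at 6588 and 7252 CPM in PlaB. The libraries were selected for poly(A), and a change in the polyadenylation of mitochondrial RNA cannot be told apart from a change in its amount. Of 8 genes of complex II and its assembly, 6 were higher and 1 was lower (median 1.80), with Sdhb at 95.8 and 91.7 CPM against 355 and 318 CPM and Sdhc at 199 and 202 CPM against 90.1 and 74.2 CPM. Of 77 mitochondrial ribosomal protein genes, 68 were higher and 5 lower (median 1.30). Of 88 cytosolic ribosomal protein genes, 11 were higher and 65 lower (median -0.99), and the members' levels are relative to totals that include all of these. Of 18 genes for electron carriers, 13 were higher and 3 lower, of 35 further assembly factors 19 and 10, and of 14 genes of the tricarboxylic acid cycle 5 and 6.

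Of 17 regulators of mitochondrial gene expression, 4 were higher in PlaB and 10 lower. Esrra, a nuclear receptor that drives oxidative genes, went from 22.2 and 19.0 CPM to 1.89 and 2.59 CPM (log2 fold change -3.20 ± 0.16, adjusted p = 3.5e-16), and its coactivator Ppargc1b from 7.20 and 7.35 CPM to 0.630 and 0.499 CPM (-3.68 ± 0.26, adjusted p = 5.8e-13). Yy1 went from 181 and 186 CPM to 24.5 and 27.2 CPM (-2.82 ± 0.08, adjusted p = 3.0e-21), and Gabpa, the DNA-binding subunit of NRF2/GABP, from 255 and 254 CPM to 49.9 and 56.4 CPM (-2.26 ± 0.09, adjusted p = 2.7e-18). The coactivator Pprc1 fell by 2.46, the receptor Esrrb by 3.65, Hif1a by 1.53 and the ribosomal RNA methyltransferase Tfb1m by 1.08 on the log2 scale. The mitochondrial RNA polymerase gene Polrmt rose by 1.51 ± 0.12 and Mterf3 by 1.59 ± 0.13. Myc went from 35.8 and 38.5 CPM up to 61.9 and 60.9 CPM, and Nrf1 from 76.5 and 77.9 CPM to 66.4 and 69.1 CPM. Transcripts of several, though not all, factors known to bind promoters of respiratory genes were therefore lower where most members were higher.

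Sites that such factors are known to bind were looked for in the 250 bases before the transcription start of the 73 members with a RefSeq promoter under the same symbol (GRCm38.p6). Each search used 7 letters and both strands. GCATGCG, the core of the NRF1 site, was found in 12.3% of these members and in 3.43% of 27025 genes with a promoter in the reference. CCGGAAG, an ETS site such as GABPA binds, was found in 17.8% against 7.83%, ATGGCGG, the YY1 core, in 6.85% against 2.58%, and AAGGTCA, the core of the site of oestrogen-related receptors, in 6.85% against 4.70%. The NRF1 core matched 4 of 44 members that rose 2-fold or more in PlaB and 5 of 28 other tested members, and the ETS site 7 of 44 and 6 of 28. The YY1 core matched 4 of 44 and 1 of 28, and the oestrogen-related receptor core 2 of 44 and 3 of 28. A match is a description of these letters and not evidence of binding. For each motif, the promoter of the most abundant member per kilobase that holds it outside the gene's own exons is shown 5′ to 3′ on the gene's strand, with the match in capitals. All 4 genes lie on the minus strand.
Cox6a1, chr5:115348982-115349208, NRF1 core on both strands: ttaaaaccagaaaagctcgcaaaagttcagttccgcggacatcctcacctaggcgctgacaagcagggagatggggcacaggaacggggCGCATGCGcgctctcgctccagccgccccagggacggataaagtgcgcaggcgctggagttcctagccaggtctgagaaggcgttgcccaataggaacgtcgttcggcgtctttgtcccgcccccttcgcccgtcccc
Uqcr11, chr10:80406831-80407071, ETS site: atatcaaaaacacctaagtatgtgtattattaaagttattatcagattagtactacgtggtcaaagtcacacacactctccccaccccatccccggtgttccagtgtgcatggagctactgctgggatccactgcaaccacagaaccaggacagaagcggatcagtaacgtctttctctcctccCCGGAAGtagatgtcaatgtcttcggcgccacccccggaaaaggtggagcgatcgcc
Ndufa1, chrX:37191239-37191488, YY1 core: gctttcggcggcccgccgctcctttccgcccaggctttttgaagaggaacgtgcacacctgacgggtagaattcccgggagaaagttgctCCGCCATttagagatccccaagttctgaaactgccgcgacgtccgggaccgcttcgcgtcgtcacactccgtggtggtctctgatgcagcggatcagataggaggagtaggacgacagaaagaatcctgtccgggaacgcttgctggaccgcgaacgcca
Atp5g3, chr2:73911327-73911576, core of the oestrogen-related receptor site: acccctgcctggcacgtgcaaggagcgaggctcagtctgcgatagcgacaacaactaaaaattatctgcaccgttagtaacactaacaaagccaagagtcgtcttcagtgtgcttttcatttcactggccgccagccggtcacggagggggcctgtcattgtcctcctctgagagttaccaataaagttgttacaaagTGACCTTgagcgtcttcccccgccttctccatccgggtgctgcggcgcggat
Of these 4 genes, Uqcr11 and Ndufa1 (27.7 and 22.3 CPM against 149 and 114 CPM) rose in PlaB, Atp5g3 fell and Cox6a1 did not pass.

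Dux KD PlaB and SE KO PlaB were each compared with PlaB, to ask whether the PlaB response needs Dux or the Tdpoz super-enhancer. Both comparisons use the same PlaB libraries, as does PlaB against DMSO, so their values are given side by side and do not bear each other out. Against PlaB, the libraries labelled Dux KD PlaB had 10 members higher and 66 lower (35.5% and 38.8% of all genes), with a median log2 fold change of -0.89 against -0.14 for all genes. SE KO PlaB had 6 members higher and 78 lower (35.5% and 36.5% of all genes), with medians of -1.50 and -0.07. At 2-fold or more, 3 members were higher and 40 lower in the first (26.1% and 28.8% of all genes) and 1 higher and 55 lower in the second (25.9% and 26.1%). Ndufb9 was at 35.8 and 29.5 CPM in Dux KD PlaB and at 21.1 and 33.4 CPM in SE KO PlaB, against 278 and 258 CPM in PlaB. Ndufs5 was lower by 3.04 ± 0.19 in the first comparison (7.78 and 8.91 CPM) and Ndufa2 by 4.05 ± 0.13 in the second (11.0 and 14.8 CPM) on the log2 scale. The c subunit gene Atp5g1 fell by 2.15 ± 0.11 and by 1.75 ± 0.11. Atp5a1, lower in PlaB than in DMSO, was higher than in PlaB by 0.57 ± 0.11 in Dux KD PlaB (1326 and 1301 CPM). Cox6b2 was higher in both, at 51.7 and 53.5 CPM in Dux KD PlaB (1.61 ± 0.14, adjusted p = 2.5e-11) and at 38.1 and 29.9 CPM in SE KO PlaB (0.99 ± 0.14, adjusted p = 2.8e-07). Cox6a1, at 117 and 107 CPM in PlaB, passed as higher in SE KO PlaB by 0.34 ± 0.11 (adjusted p = 0.00955), a call that did not hold with RLE or library-size scaling (0.21 in both) or without PlaB replicate 2 or SE KO PlaB replicate 2.

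A pair of comparisons with DMSO were added after these values were seen. They give the level of each line relative to solvent, since PlaB itself is far from DMSO. In the libraries labelled Dux KD PlaB 41 members were higher and 4 lower than in DMSO (17.7% and 17.1% of all genes), with a median log2 fold change of 0.27. Without DMSO replicate 2, 27 were higher and 1 lower. In SE KO PlaB 18 were higher and 31 lower (29.6% and 26.5% of all genes), with a median of -0.11 (0.01 with library size alone, with 28 higher and 26 lower), which became 0.05 without SE KO PlaB replicate 1 and -0.27 without its replicate 2. The direction for SE KO PlaB thus depended on which of its 2 libraries was kept. At 2-fold or more, 6 members were higher and 0 lower in Dux KD PlaB (7.53% and 4.14% of all genes) and 0 higher and 5 lower in SE KO PlaB (17.1% and 11.0%). Among members averaging 3 or more in log2 CPM, the named rises in Dux KD PlaB were Ndufs5 (1.16 ± 0.23), Cox6b2 (1.09 ± 0.13) and Cox7a2 (1.05 ± 0.10), and Ndufa2 rose by 0.68 ± 0.13. The low-count Ndufs6b had 36 and 38 counts there against 8 and 10 in DMSO. In SE KO PlaB, Ndufaf6, an assembly factor, fell by 1.62 ± 0.16 to 5.81 and 4.43 CPM, and Cox4i2 by 2.89 ± 0.40 to 0.564 and 0.420 CPM. The 13 mitochondrially encoded subunits summed to 29408 and 28653 CPM in Dux KD PlaB and to 46992 and 42211 CPM in SE KO PlaB, against 32055 and 32404 CPM in DMSO. They were far above the 5916 and 6353 CPM of PlaB in both lines.

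RA asked the same of another inducer. In RA against DMSO, 16 members were higher and 34 lower (32.3% and 26.6% of all genes), with a median log2 fold change of -0.14 against 0.10 for all genes. Under a 2-fold threshold 2 were higher and 5 lower (20.6% and 10.4% of all genes). The split depended on scaling: with library size alone 30 were higher and 24 lower, the median of the members was 0.06 and that of all genes moved by 0.19. The members stayed 0.24 below the median of all genes under both scalings. In RA 8 of 10 ESC markers were lower and 1 higher, and 7 of 8 endoderm markers were higher (list medians -1.12 and 3.57), with the endoderm list at 45.4 and 43.3 CPM in DMSO and 165 and 172 CPM in RA, and their part in the result was not tested. Cox6c went from 137 and 119 CPM in DMSO to 55.8 and 44.4 CPM in RA (-1.35 ± 0.13, adjusted p = 2.0e-09), and Ndufaf6 from 16.5 and 15.1 CPM to 5.77 and 7.55 CPM (-1.25 ± 0.16, adjusted p = 1.6e-07). Against untreated ESCs, at 55.3 and 68.8 CPM, Cox6c did not pass (-0.31, adjusted p = 0.0567). Cox7a1 rose to 13.1 and 11.1 CPM (1.03 ± 0.18, adjusted p = 2.7e-05) and Ndufa3 to 28.6 and 25.0 CPM from 16.5 and 13.1 CPM (0.86 ± 0.16, adjusted p = 6.1e-05). Ndufa3 did not differ past the threshold from untreated ESCs (0.05, adjusted p = 0.816).

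With RA, Dux KD cells had 27 members higher and 18 lower than wild-type cells (18.0% and 19.2% of all genes; median 0.17), and 5 higher and 2 lower at 2-fold or more (6.41% and 4.53%). Leaving out 1 library brought these to 15 and 13 without Dux KD RA replicate 1 and to 16 and 13 without RA replicate 2. Ndufs5 (4.32 and 2.19 CPM in RA, 7.87 and 7.36 CPM in Dux KD RA) rose by 1.22 ± 0.23 and Ndufa2 (12.6 and 12.9 CPM against 28.5 and 24.6 CPM) by 1.06 ± 0.13 on the log2 scale. Both genes were lower in the libraries labelled Dux KD PlaB than in PlaB, and the difference of the 2 contrasts was itself tested, where the knockdown and a missing action of PlaB cannot be told apart. For Ndufs5 it was -4.26 ± 0.30 (adjusted p = 7.8e-13). Cox7a1 was lower in Dux KD RA by 0.63 ± 0.18 (adjusted p = 0.00707), a call lost without RA replicate 1 or without Dux KD RA replicate 2. In SE KO RA, 29 members were higher and 15 lower than in RA (21.3% and 24.7% of all genes; median 0.14), and 3 higher and 0 lower at 2-fold or more (6.57% and 11.0%). Without RA replicate 1 the counts were 22 and 7, and without SE KO RA replicate 1, whose genotype label reads wild type, they were 22 and 6. Atp5e, the ε subunit, was at 36.3 and 30.6 CPM in RA and at 68.9 and 62.4 CPM in SE KO RA (0.97 ± 0.22, adjusted p = 6.9e-04). Ndufs1 was lower, at 128 and 123 CPM against 217 and 219 CPM (-0.80 ± 0.09, adjusted p = 2.4e-08), and so was Atp5g1, at 98.5 and 90.2 CPM against 151 and 157 CPM (-0.71 ± 0.11, adjusted p = 6.0e-06).

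Zscan4 OE had 12 members higher and 43 lower than ESC (18.9% and 19.6% of all genes), with a median log2 fold change of -0.26 against 0.00. Of these, 2 higher and 4 lower ones reached 2-fold (7.25% and 4.39%). Of the lower members 21 were among the 40 of complex I and 12 among the 17 of complex V, where none passed as higher. Atp5g3 went from 349 and 371 CPM to 171 and 140 CPM (-1.21 ± 0.12, adjusted p = 8.9e-09) and Atp5d, the δ subunit, from 209 and 214 CPM to 97.4 and 94.0 CPM (-1.15 ± 0.14, adjusted p = 1.8e-07). With DMSO as the control, 8 members were higher and 17 lower, and Atp5d did not pass (-0.24, adjusted p = 0.177). With library size alone, 19 were higher and 33 lower. DMSO itself differed from ESC in 11 members that were higher and 36 that were lower (21.2% and 22.4% of all genes; median -0.19), with 4 and 2 at 2-fold or more (8.32% and 7.91%) and 17 and 31 with library size alone. Among these, Ndufaf3 was at 15.1 and 15.0 CPM in ESC and at 7.32 and 6.69 CPM in DMSO (-1.10 ± 0.15), Atp5d fell by 0.90 ± 0.13, and Cox6c was higher in DMSO by 1.05 ± 0.13.

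Dux KD Zscan4 OE against Zscan4 OE gave the largest share of higher members after PlaB among the planned comparisons, with 58 higher and 3 lower (16.0% and 16.7% of all genes) and a median of 0.48 against 0.01 for all genes. Complex I had 29 of 40 and complex V 12 of 17 genes higher, and none of either passed as lower. The changes were small, since at 2-fold or more 5 members were higher and 0 lower (5.78% and 5.35% of all genes). Atp5k, the e subunit of the membrane part, went from 13.6 and 13.7 CPM to 38.8 and 34.7 CPM (1.43 ± 0.18, adjusted p = 1.0e-06). Ndufb4 went from 38.2 and 36.6 CPM to 93.0 and 71.0 CPM (1.14 ± 0.15, adjusted p = 2.0e-06). Cox7a2l was lower, at 79.0 and 71.5 CPM against 108 and 105 CPM (-0.50 ± 0.08, adjusted p = 2.6e-05). Cox6b2, at 25.1 and 18.1 CPM against 32.2 and 31.7 CPM, was lower by 0.56 ± 0.14 (adjusted p = 0.00276). That call was lost without Dux KD Zscan4 OE replicate 2 (-0.34) and when only these 2 groups were modelled (-0.55, adjusted p = 0.0535). In the same comparison 52 of 88 cytosolic ribosomal protein genes and 36 of 77 mitochondrial ones were higher, and their part in the result was not tested. The labels record no doxycycline for the knockdown libraries, and Zscan4c and Zscan4d were lower there than in untreated ESCs. The knockdown, missing induction of Zscan4 and the absence of doxycycline itself therefore cannot be told apart here.

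Dux OE left the chain nearest to ESC. It had 5 members higher and 2 lower (14.7% and 12.8% of all genes), with a median log2 fold change of -0.01. With a 2-fold threshold 2 were higher and 0 lower (7.38% and 2.12%). The 2 were Cox6b2 and Cox6a2, the latter with only 4 and 3 counts in Dux OE against 0 and 0 in ESC. Cox6b2 went from 13.5 and 12.3 CPM to 27.7 and 26.1 CPM (1.06 ± 0.15, adjusted p = 3.3e-06) and Cox7a1 from 2.49 and 3.40 CPM to 5.61 and 5.95 CPM (0.98 ± 0.23, adjusted p = 0.00206). Neither passed against DMSO, and Cox7a1 did not pass without ESC replicate 1. Ndufaf8 was lower by 0.59 ± 0.21 (adjusted p = 0.0335) and Atp5j by 0.31 ± 0.09 (adjusted p = 0.00690). Ndufaf8 passed with none of the 4 libraries left out in turn, and Atp5j lost its call without Dux OE replicate 1 or ESC replicate 2. When the model held only these 2 groups, 21 were higher and 14 lower, and with DMSO as the control 35 and 13, so the low count depends on these choices.

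Dux R70A OE differed more, with 14 members higher and 40 lower than ESC (21.6% and 23.0% of all genes; median -0.25) and 8 higher and 39 lower than Dux OE (17.3% and 21.4%; median -0.24). At 2-fold or more the counts were 4 and 2 against ESC (10.2% and 6.72%) and 1 and 1 against Dux OE (6.11% and 7.51%). Without Dux R70A OE replicate 2, 5 members were higher and 25 lower than Dux OE at the adjusted p alone. With library size alone the counts were 21 and 19 against ESC and 17 and 22 against Dux OE, with the median of all genes moved by 0.20 and 0.18. In complex V 15 of 17 genes were lower than ESC and 14 of 17 lower than Dux OE, with none passing as higher. In complex I 15 and 17 of 40 were lower. The complex V sum was 7207 and 7377 CPM in ESC, 5591 and 5035 CPM in Dux R70A OE and 5727 and 5732 CPM in DMSO. Atp5g1 was at 187 and 182 CPM in ESC, 100 and 104 CPM in DMSO, 159 and 159 CPM in Dux OE and 79.7 and 72.4 CPM in Dux R70A OE. It was lower in the mutant by 1.28 ± 0.11 against ESC and by 1.06 ± 0.11 against Dux OE (adjusted p = 5.4e-10 and 2.0e-08). Atp5k was lower than in ESC by 1.02 ± 0.19, though not past the test against DMSO (-0.38, adjusted p = 0.139), and Ndufa10, at 159 and 146 CPM against 285 and 280 CPM, lower than in Dux OE by 0.89 ± 0.11. Cox7b was higher than in Dux OE, at 133 and 138 CPM against 90.4 and 83.3 CPM (0.64 ± 0.10, adjusted p = 7.3e-06). In these libraries the mitochondrially encoded subunits summed to 20768 and 20025 CPM, against 34557 and 33997 CPM in ESC. SE KO Dux OE had 1 member higher and 1 lower than Dux OE at 2-fold or more (2.46% and 3.84% of all genes). The higher one was Cox6c2, with 8 and 4 counts against 0 and 0 in Dux OE. At the adjusted p alone 20 members were higher and 21 lower (11.5% and 14.0% of all genes), with a median of -0.04. Without Dux OE replicate 2 the counts were 11 and 12, without Dux OE replicate 1 they were 13 and 13, and without SE KO Dux OE replicate 1 they were 11 and 11. Atp5e was at 69.8 and 67.0 CPM in Dux OE and at 33.1 and 37.0 CPM in SE KO Dux OE (-0.97 ± 0.22, adjusted p = 0.00169), Cox6c rose by 0.68 ± 0.13 and Ndufaf4 by 0.66 ± 0.10.

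**Figure D4:**
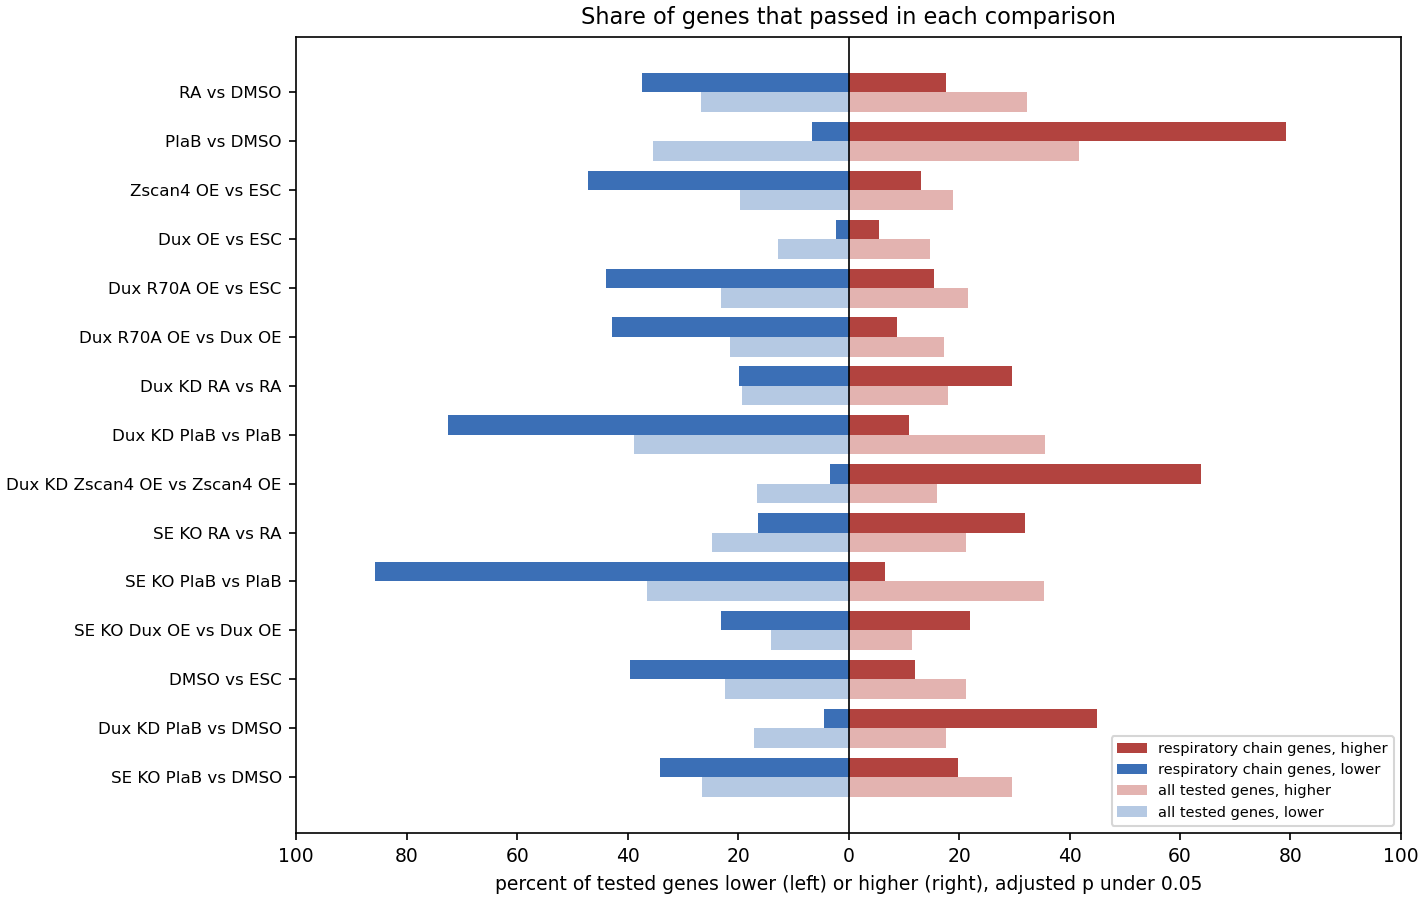
Percent of the 91 members (dark) and of all 20953 tested genes (light) that were higher (right) or lower (left) at an adjusted p under 0.05 in each comparison. In PlaB against DMSO the members reached 72 of 91 higher, in SE KO PlaB against PlaB 78 of 91 lower and in Dux OE against ESC 7 of 91 in either direction.

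Ndufa4l2 followed a pattern of its own. It encodes a homologue of Ndufa4, a protein now counted with complex IV, and is known as a target of hypoxia-inducible factor. Ndufa4 itself was at 109 and 107 CPM in DMSO and 388 and 326 CPM in PlaB (1.72 ± 0.10) and between 85.4 and 204 CPM in the libraries of the other groups. Ndufa4l2 ranged from 0.770 and 0.949 CPM in SE KO Dux OE and 1.13 and 1.82 CPM in SE KO PlaB to 154 and 151 CPM in SE KO RA. It stood at 53.6 and 56.6 CPM in DMSO, 48.6 and 54.8 CPM in RA and 49.4 and 43.6 CPM in Dux KD PlaB, and RA overlapped with both other groups. It was at 6.85 and 9.13 CPM in ESC, 5.83 and 7.71 CPM in Dux OE and 4.94 and 4.90 CPM in PlaB. The fall in PlaB was thus -3.48 ± 0.29 against DMSO (adjusted p = 1.7e-11) but -0.70 against ESC (adjusted p = 0.0636), and DMSO exceeded ESC by 2.79 ± 0.28. In SE KO cells it was higher than in wild-type cells with RA (1.56 ± 0.23), lower with PlaB (-1.75 ± 0.42) and lower with Dux OE (-2.99 ± 0.43). It was lower in Dux KD RA than in RA by 1.81 ± 0.26 and higher in Dux KD PlaB than in PlaB by 3.24 ± 0.29. Relative to ESC it was higher in Zscan4 OE (25.5 and 27.4 CPM) by 1.73 ± 0.29 and in Dux R70A OE (37.5 and 28.1 CPM) by 2.04 ± 0.29, where it also exceeded Dux OE by 2.27 ± 0.30, but both groups were lower than DMSO (-1.06 and -0.75). The replicates of Dux KD Zscan4 OE differed, at 25.7 and 7.15 CPM.

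**Figure D5:**
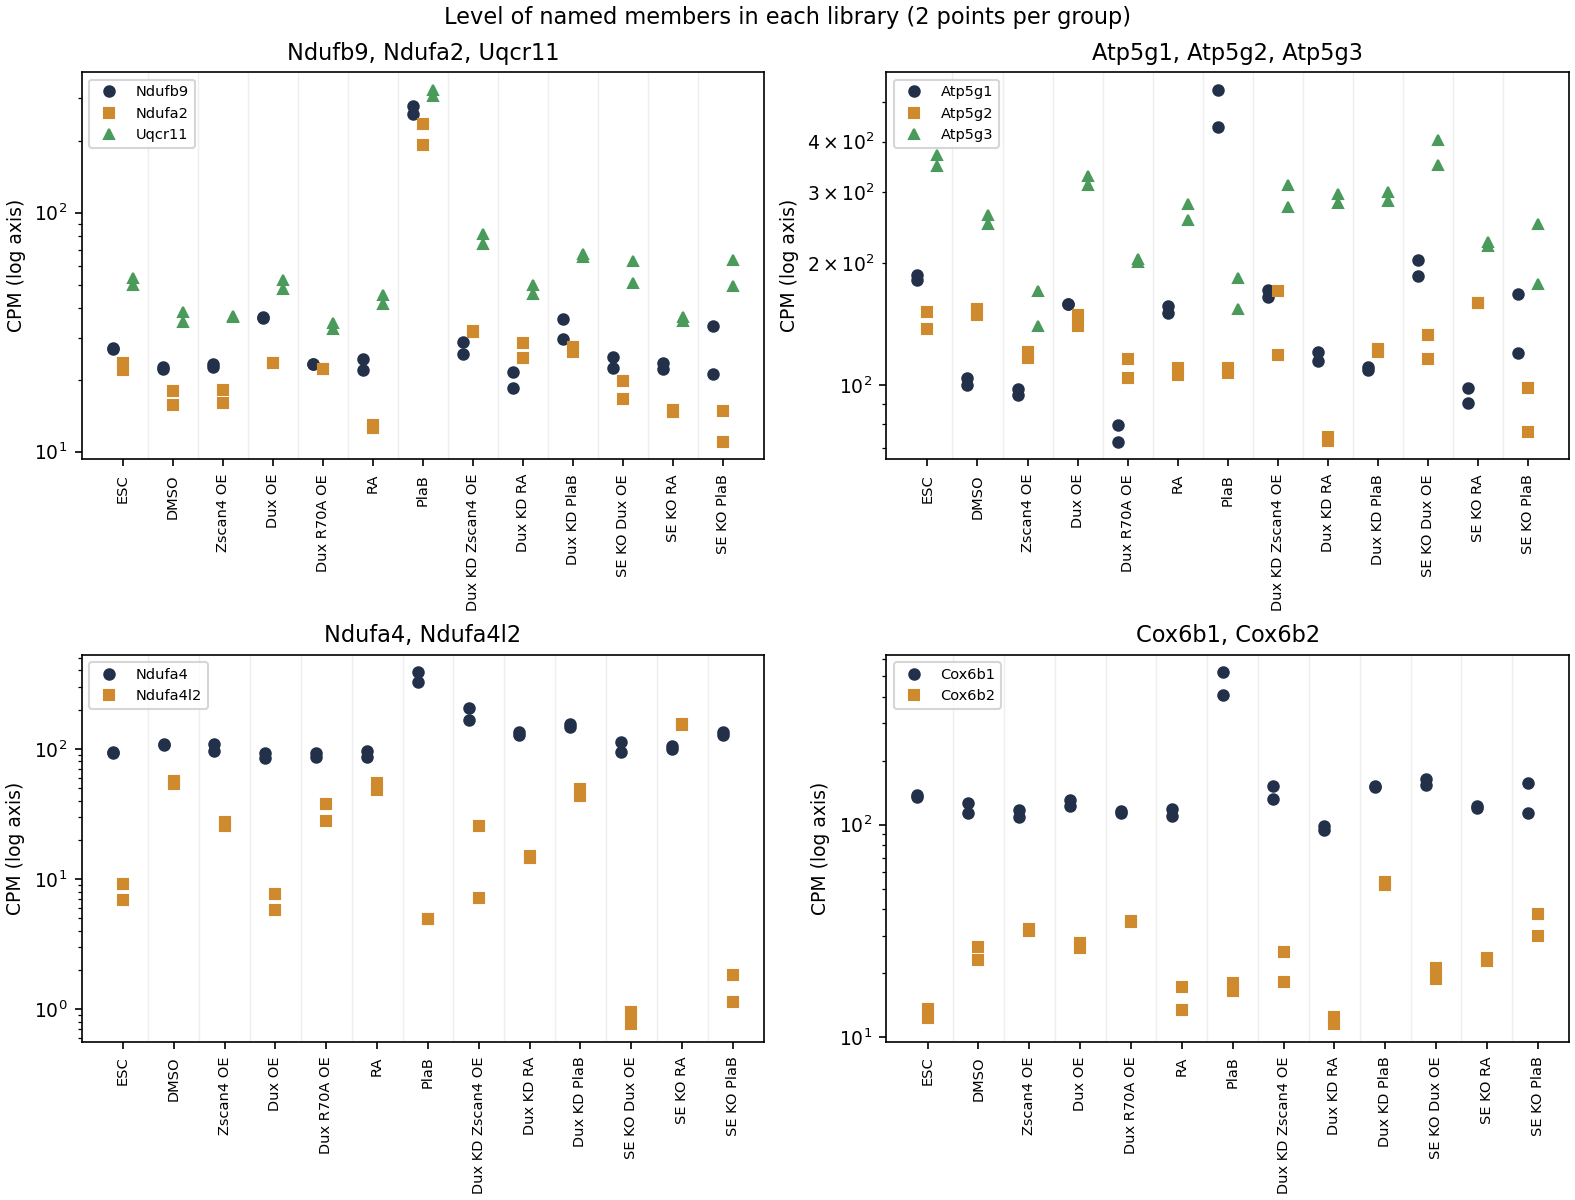
CPM on a log axis of 4 sets of members in every library, with 2 points per group. Ndufb9, Ndufa2 and Uqcr11 peak together in PlaB, Atp5g1 peaks in PlaB, at 537 and 435 CPM, where Atp5g2 and Atp5g3 do not, and Ndufa4l2 and Cox6b2 do not follow Ndufa4 and Cox6b1.

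Some members were near the floor, and 8 with an average level under 3 on the log2 CPM scale passed at 2-fold or more in at least 1 comparison. The processed pseudogene Cox6c2 had 55 and 67 counts in PlaB, 13 and 11 in Dux KD PlaB, 14 and 9 in Dux KD RA and 3 and 2 in DMSO, with none in RA or Dux OE. Its reads may be shared with Cox6c, and the same holds for Ndufs6b, at 76 and 79 counts in PlaB against 8 and 10 in DMSO, and for Ndufb4c, at 0.678 and 0.726 CPM against 2.44 and 2.52 CPM. Ndufb4c fell by 1.81 ± 0.35 on the log2 scale (adjusted p = 3.7e-05) but did not pass against ESC (-0.46, adjusted p = 0.310). Cox7b2, a testis form, had 39 and 27 counts in PlaB against 1 and 6 in DMSO and 0 and 1 in Dux KD PlaB. Cox6a2, the muscle form, reached 17 and 24 counts in SE KO RA against 1 and 1 in RA, and Cox8c 31 and 14 in PlaB against 3 and 1 in DMSO. No fold change is given for Cox6c2, Cox7b2, Cox6a2 and Cox8c, since the lower group had counts at or near 3. Their calls still enter the numbers of members at 2-fold or more, such as Cox6c2 in RA, Dux KD RA and SE KO Dux OE. Cox8c enters that of RA, and Cox6a2 those of Dux OE, Dux R70A OE against ESC and SE KO RA.

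Likeness among members was measured by Pearson's r of each gene's 13 group means with the median of all members, as a description over groups that share controls and a common PlaB group. Of the 91 members, 36 had an r over 0.8 and 8 had an r under 0. The most alike were Ndufaf3 (0.954), Ndufs7 (0.951), Ndufa2 (0.950), Uqcr11 (0.948) and Ndufs6 (0.947), and the least Ndufb4c (-0.349), Ndufa4l2 (-0.322) and Atp5a1 (-0.304). The PlaB group alone spans most of the range of the median, so r mainly records who rose there. Members lay on 19 chromosomes with at most 10 on 1 of them. They were short genes, with a median exon length of 1501 bases against 3384 for all tested genes, 4 exon blocks against 7 and a span of 7187 bases against 15337. Across members the log2 fold change in PlaB had a Spearman rho of -0.316 with exon length and -0.412 with the average level, and across all tested genes of -0.275 and -0.413. Genes are not independent replicates, and no p is given for these values.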

How the data were processed

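Poly(A) RNA-seq of 26 libraries in 13 groups of 2 was analysed. The authors deposited raw read counts per gene (55291 genes) without normalization. The submitters' processing notes name FastQC, Trimmomatic, STAR, featureCounts, DESeq2 and mm10, while versions, strand setting and the treatment of reads with several matches are not given in the sources used here. Reads of near-identical copies and of overlapping or antisense genes may therefore be split or dropped. Every count column was used. The 3-count floor covers counting error only.

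Counts were tested in R 4.3.3 with the quasi-likelihood F-test of edgeR 4.0.16 in 1 model of all libraries, with TMM scaling and filterByExpr (20953 genes kept). P-values were Benjamini-Hochberg adjusted over all genes tested, and a gene passed at an adjusted p under 0.05. The 2 comparisons of Dux KD PlaB and SE KO PlaB with DMSO were added after the values were seen. Fold changes use a prior count of 0.125, and CPM uses TMM-scaled totals. The tests were checked on simulated counts for PlaB against DMSO, with 1 common dispersion and 200 of 20953 genes changed. On the log2 scale edgeR recovered 35% of changes of 0.5, 90% of changes of 1 and 99.5% of changes of 2. There were 6, 9 and 7 false calls. The simulation gave all groups the same spread and changed few genes, so it does not give the error rates of these data.

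Replicates of a group differed by more than sampling noise (chi-square per degree of freedom 1.55 to 30.2), so each library counted as 1 replicate. The widest were SE KO PlaB at 30.2 and Dux KD Zscan4 OE at 26.1, followed by SE KO Dux OE at 9.81. The model estimated the spread of each gene over all groups. SE and p-values may therefore be too small in comparisons that use SE KO PlaB or Dux KD Zscan4 OE. Named genes were the isoform pairs, catalytic or core subunits, and per comparison the 2 highest and 2 lowest members that passed at an average log2 CPM of at least 3 with no overlap between groups. Low-level members past 2-fold, regulators past 2-fold and the members most and least like the median pattern were also named. Ndufab1, Ndufa1, Ndufs7, Ndufs8, Ndufv2, Ndufaf7, Cox7a2, Cox7a2l, Uqcrh, Atp5c1, Atp5o, Sdhb, Sdhc and mitochondrial genes were added as examples after their values were seen. The regulators Myc and Nrf1 in PlaB were added in the same way. The members and lists were chosen with earlier results of these data known. Promoters are from RefSeq. The alternatives were RLE or library-size scaling, no filterByExpr, DESeq2 1.42.0, a 2-fold threshold, the other control group, only the groups compared, the replicate block and leaving out each library. 1 member is not reported here by name.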

Additional observations from a re-analysis of the deposited data

Results flagged for a closer look

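The effects of Dux KD and of SE KO on the members differed between inducers by interaction contrasts in the edgeR model (adjusted p under 0.05). The effect of Dux KD was higher with PlaB than with RA for 11 members and lower for 64 (32.3% and 33.6% of all genes). The libraries labelled Dux KD PlaB showed a median share of 0.0910 of the PlaB response, against 0.0648 to 0.221 in groups without PlaB, and their 2-cell markers summed to 6.66 and 6.82 CPM against 7331 and 7584 CPM in PlaB, so Dux KD and a missing action of PlaB cannot be told apart in this contrast. The effect of SE KO was higher with PlaB than with RA for 6 and lower for 75 (35.5% and 27.6% of all genes). In SE KO PlaB the median share was 0.238 and the 2-cell markers summed to 598 and 540 CPM. SE KO and a weaker action of PlaB thus cannot be told apart in this contrast. Between Dux OE and RA, the effect of SE KO was higher in Dux OE for 19 members and lower for 30 (22.3% and 19.0% of all genes). Each contrast uses the wild-type RA and PlaB or Dux OE libraries of the comparisons above, and those with SE KO RA include the library whose genotype label reads wild type.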

How the results depend on the processing

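Of the counts and medians of the members recomputed under the alternatives, 302 kept their direction and stayed within 1.5 times the count or 1 SD of the median, 52 moved further and 1 reversed. Requiring 2-fold left 7 members in RA, 6 in Zscan4 OE, 2 in Dux OE, 6 and 2 in Dux R70A OE against ESC and Dux OE, 7 in Dux KD RA, 43 in Dux KD PlaB, 5 in Dux KD Zscan4 OE, 3 in SE KO RA, 2 in SE KO Dux OE, 6 in DMSO against ESC, 6 and 5 in Dux KD PlaB and SE KO PlaB against DMSO, and 11 for the SE KO contrast of Dux OE with RA. With library size alone the medians became 0.06 for RA (a reversal), 1.56 for PlaB, -0.11 for Zscan4 OE, -0.02 and -0.05 for Dux R70A OE against ESC and Dux OE, -1.09 for Dux KD PlaB, -1.62 for SE KO PlaB and 0.01 for SE KO PlaB against DMSO. RLE and DESeq2 gave 1.45 for PlaB and -1.05 for Dux KD PlaB. With the other control group (ESC for DMSO, or the reverse) medians were -0.32 for RA, 1.14 for PlaB, -0.07 for Zscan4 OE, 0.20 for Dux OE and -0.08 for Dux R70A OE, and 25 members passed in Zscan4 OE and 48 in Dux OE. With only the groups compared, 35 passed in Dux OE. The cause was not tested.

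Leaving out 1 library gave medians from 1.19 to 1.44 in PlaB, -0.96 to -0.72 in Dux KD PlaB, -1.69 to -1.37 in SE KO PlaB and -0.27 to 0.05 in SE KO PlaB against DMSO. The number passing ranged from 2 to 4 in Dux OE, 30 to 39 in Dux R70A OE against Dux OE, 28 to 36 in Dux KD RA, 28 to 32 in SE KO RA, 22 to 31 in SE KO Dux OE and 28 to 34 in Dux KD PlaB against DMSO.

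Single genes reversed mainly where the change was small. Against ESC in place of DMSO, PlaB gave -0.20 for Ndufs1, 0.41 for Cox6b2 and 0.75 for Cox7b. Against DMSO in place of ESC, Ndufa4l2 gave -1.06 in Zscan4 OE and -0.75 in Dux R70A OE, and Cox7a1 -0.04 in Dux OE. In PlaB, library size alone gave 0.09 for Atp5b, 0.15 for Cox6a1 and 0.22 for Cox7b, and RLE and DESeq2 0.05 for Cox6a1 and 0.12 for Cox7b. Leaving out 1 library gave -0.15 to 0.07 for Cox7b (0.05 without DMSO replicate 1) and -0.18 to 0.36 for Cox4i2 (-0.03 without PlaB replicate 2). Over all tested genes, replicate numbers did not pair the libraries (correlations of same-numbered deviations from -0.0768 to 0.0190). Over the members alone they ran from -0.324 (Dux KD Zscan4 OE against Zscan4 OE) to 0.271 (PlaB against DMSO). With a replicate block 78 members passed in PlaB, the same number as without it. At these depths members near 3 counts have no usable fold change.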
